A study of Hordeum vulgare with 10 samples.

Results

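The heat response of barley roots was set beside that of shoots of the same age, gene by gene. A gene was included when both tissue tables listed it with an average of 50 or more normalized counts over all libraries of the tissue, and 10907 of the 24312 genes in both tables (44.9%) met this minimum. Within each tissue the response was log2((heat mean + 1)/(control mean + 1)), and the difference between the tissues was the root response minus the shoot response. A positive difference therefore means a response that is higher in roots, which for a gene that fell means a smaller fall.

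The plants were barley (Hordeum vulgare) of the spring cultivar Rolap, 2 weeks old. Control plants were kept at 22 °C and heat-stressed plants were held for 1 h at 35.5 °C. Both conditions share the cultivar and the age. Roots gave 2 control and 2 heat libraries and shoots gave 3 and 3. The study describes them as biological replicates. Each tissue is whole, so fewer cells of a type and less RNA per cell cannot be told apart.

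Plants answer a rise in temperature within minutes. Heat shock transcription factors are released from chaperones and switch on genes for heat shock proteins, which keep other proteins folded, while many genes of growth and metabolism are turned down. Roots and shoots carry different cell types and use different genes even at rest, and the question here is how far the same genes answer heat in both. The files pair almost no identifier with a name, and none of the identifiers matched the RefSeq annotation at hand. Most genes are therefore given by their Ensembl Plants identifier, which begins with MLOC. Names and roles are given for Hsp90.1 and for the phosphate (Pi) genes that the study pairs with identifiers.

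Whole reads per library were recovered from the group means, as described under the processing, and libraries are told apart by their DESeq size factor only. Size factors were set within each tissue, so normalized counts of roots and shoots share no common scale. Comparisons of level between the tissues are therefore approximate. Where a log2 root to shoot ratio is given, each group was scaled to its total over the 10907 genes. Root libraries held 16021844 to 16828645 reads in genes. Shoot libraries held 11055948 to 12047748 reads, which leaves out 25 genes whose mean in 1 or both shoot groups could not be resolved. Those genes held 25.7% of the reads assigned to genes, after normalization, in control shoots and 27.9% in heated shoots. Of the 10907 genes, 10897 were tested, and the other 10 are described below. The tissue labels were checked with 2 root Pi transporters, which lie below the minimum in shoots. PHT1;1 had a mean of 828 in control roots and 0 in both shoot groups, and PHT1;4 had 2450 in control roots and 2.13 in control shoots. Both are root genes in these libraries.

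The 2 responses went together. Across the 10907 genes Pearson's r was 0.778 and Spearman's rho 0.580, which describes genes and not replicates, and the genes share libraries, depth and normalization. The least squares slope of the root response on the shoot response was 1.02, and that of the shoot response on the root response was 0.596. The major axis, which treats both tissues alike, had a slope of 1.40. The root responses were also more widely spread, with an SD of 1.07 against 0.82 in shoots. The responses had the same sign for 7689 genes (70.5%).

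Pearson's r was lower without the genes with the strongest rises, and the rank correlation hardly moved. A total of 140 genes reached a log2 response of 4 or more in either tissue. Without them r was 0.618, rho 0.565 and the slope of root on shoot 0.86. Leaving out genes by their own response narrows its range, which lowers r. Among the 8858 genes with a response under 1 in size in both tissues r was 0.447. Genes that reached a response of 1 or more in size in both tissues numbered 620, and 610 of them moved in the same direction, with 486 higher and 124 lower. In 1089 genes this size was reached in roots alone, and in 340 in shoots alone.

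**Figure D1:**
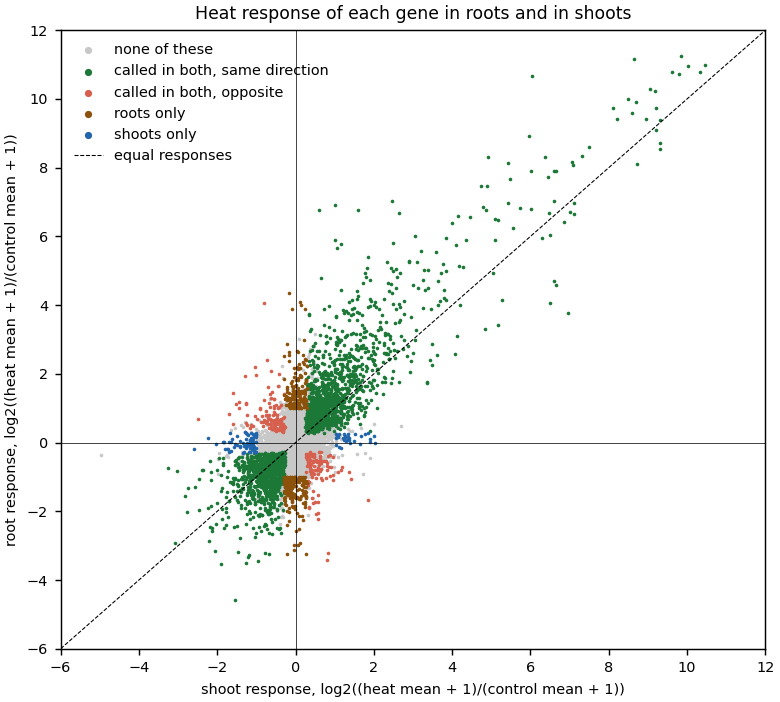
Root response against shoot response for each gene, both as log2((heat mean + 1)/(control mean + 1)), with 1 point per gene, coloured by response class. Most of the strongest risers, up to 11.25 in roots and 10.46 in shoots, lie near or above the dashed line of equal responses. MLOC_66700, with 3.76 in roots and 6.96 in shoots, lies below it. The root and shoot classes of 1 tissue only lie along the axes.

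Among the genes that met the minimum, the largest rises were shared between the tissues more widely than the largest falls. Of the 100 genes with the largest rise in each tissue 74 were the same, and of the 500 with the largest rise 328. For falls the numbers were 19 of 100 and 137 of 500. The responses ran from -4.59 to 11.25 in roots and from -4.96 to 10.46 in shoots, so falls covered a narrower range than rises. A gene scarce in control in both tissues meets the minimum only by rising in both, which favours shared rises. The difference between these overlaps was not tested. It concerns the largest responses only. By the calls of the fit described next, 1494 of the 2932 genes higher in roots were also called higher in shoots. Of the 2291 lower in roots, 1094 were also called lower in shoots.

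The test of each response came from 1 fit of edgeR (quasi-likelihood, Benjamini-Hochberg adjustment, threshold 0.05) over all 10 libraries and 19362 genes. Heat changed 5223 of the 10897 tested genes in roots, 2932 of them higher and 2291 lower. Over all genes of the fit 43.3% were called in roots, 21.1% higher and 22.2% lower. In shoots 4355 were called, 2272 higher and 2083 lower, where the shares over all genes of the fit were 32.3%, 15.7% and 16.6%. The root and shoot responses differed for 2553 genes, or 23.4% of those tested, with the response higher in roots for 1500 and lower for 1053. The matching shares over all genes of the fit were 17.9%, 10.1% and 7.78%.

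The direction of these differences depended on the scaling. In the authors' normalization the heated roots had 1.40 times the normalized reads in genes of the control roots. For heated against control shoots it was 1.17 times. The edgeR fit above used its own TMM scaling over all 10 libraries. When libraries were instead scaled to their total of reads in the genes tested, the median response fell by 0.47 in roots and by 0.19 in shoots on the log2 scale, and the median difference by 0.28. The number of differing genes was then 2898, but 762 of them had a higher response in roots and 2136 a lower one. The share higher in roots thus went from 58.8% to 26.3%. In both scalings, 1815 of the 2553 genes were called with the same direction. Without the root control library of size factor 1.22 the number with a higher response in roots was 998.

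A gene far under the minimum in one condition can meet it only through the other, and so only by responding. At least 1 group mean was under 50 for 774 genes, of which 771 were tested and 273 called in the difference. All 4 group means were at least 50 for the other 10133. Of the 10126 of them that were tested, 2280 (22.5%) were called in the difference, and the r over the 10133 was 0.702. Among the named genes, control means under 50 were found in roots for MLOC_66151, MLOC_68416, MLOC_67371, MLOC_10453, MLOC_66700, MLOC_2337, MLOC_10834 and MLOC_34630. In control shoots they were found for MLOC_58742, MLOC_60990, MLOC_66700, MLOC_2337, MLOC_10834, MLOC_57538 and MLOC_79063. Heat means under 50 were found in roots for MLOC_58742, MLOC_60990, MLOC_13520 and MLOC_66504, and in shoots for MLOC_66504, MLOC_55834, MLOC_45125 and MLOC_73815. The gene just inside the minimum, MLOC_80800, had a lower tissue mean of 50.01, a root response of -0.66 and a shoot response of -0.03. The gene just outside, MLOC_51251, had 49.96, with 0.49 and 0.41.

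A gene counted as shared when it was called in both tissues in the same direction. This held for 2588 genes, 1494 higher and 1094 lower, and over all genes of the fit the share was 17.2%. Within this class the sizes differed for part of the genes. The difference was called for 742 genes (28.7%), beside 23.4% of all 10897 tested genes. The response was larger in roots for 642 of the 742 and larger in shoots for 100. With scaling to total reads these counts were 818 and 129, and without any 1 of the 4 root libraries the second was 50 to 64. Among the genes higher in both, 450 rose more in roots and 46 more in shoots, and among those lower in both, 192 fell further in roots and 54 further in shoots.

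Alike is a stronger statement than not called. The 95% confidence interval of the difference lay within 0.5 on either side of 0 for 273 of the genes higher in both and for 200 of the genes lower in both. Over all tested genes this held for 1557 (14.3%). For 1227 genes whose difference was not called the interval still reached beyond 1 in size. The median standard error of the difference was 0.20.

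The strongest shared rises were those of 66 genes called higher in both tissues with a log2 response of at least 4 in each. Their median response was 7.82 in roots and 6.60 in shoots, and the root response was the higher one for 50 of them. The difference was called for 24, with 21 higher in roots. Together the 66 genes went from 0.083% of all reads assigned to genes in control roots to 12.5% in heated roots, and in shoots from 0.041% to 3.33%. They were chosen by their response, so these shares describe them and test nothing.

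Hsp90.1 (MLOC_5618), a heat-inducible cytosolic chaperone, belonged to these genes. Its normalized counts were 120 and 206 in the control roots, against 206257 and 186085 in the heated roots. In control shoots they were 23.6, 70.1 and 59.4, and in heated shoots 27375, 35369 and 27486. Every heated library was far above every control library of its tissue, and the heated roots were far above the heated shoots. The response was 10.22 in roots and 9.17 in shoots, and the fitted difference was 1.03 ± 0.42 (SE) with an edgeR adjusted p of 0.113. The call turned on single control libraries. The adjusted p was 0.048 without the root control library of size factor 1.22, and 0.0159 without the shoot control library of size factor 1.02.

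The 3 genes with the largest responses shared by both tissues and no called difference were MLOC_2337, MLOC_77985 and MLOC_10834. MLOC_2337 had 19.0 and 72.8 normalized counts in control roots against 76928 and 113877 in heated roots. Shoots had 3.94, 12.7 and 22.9 in control and 19666, 20052 and 20349 under heat. Both tissues thus went from a trace to very high levels, with a response of 10.99 in roots and 10.46 in shoots. The fitted difference was 0.47 ± 0.65 (edgeR adjusted p = 0.683), and its 95% interval ran from -0.93 to 1.87. The control root libraries were far apart for this gene.

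MLOC_77985 reached the highest level of the 3 genes. Its counts were 47.4 and 101 in control roots against 134380 and 134577 in heated roots. In shoots they were 26.6, 62.8 and 62.0 in control and 70218, 64125 and 63349 under heat. The responses were 10.80 and 10.32 and the edgeR adjusted p of the difference was 0.504. For MLOC_10834 the control root libraries had 12.9 and 53.2 counts and the heated ones 66901 and 69945. Its control shoot libraries had 3.94, 13.6 and 15.3 and the heated ones 12788, 12790 and 11537. The fitted difference of 0.88 ± 0.60 was not called (edgeR adjusted p = 0.354). It became 2.18 with an adjusted p of 0.0117 without the root control library of size factor 1.22, which holds the higher of the 2 root control values in all 3 genes and in Hsp90.1.

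The largest shared falls were smaller than the largest shared rises. MLOC_13520 was the strongest of those with no called difference. It had 197 and 211 normalized counts in control roots against 23.9 and 28.1 in heated roots. In shoots, where it was far more abundant, it had 4607, 3802 and 3280 in control and 486, 416 and 477 under heat. The responses were -2.93 in roots and -3.08 in shoots, from levels that differ widely between the tissues, and the 95% interval of the difference ran from -0.57 to 0.78 (edgeR adjusted p = 0.878).

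MLOC_66504 went from 99.2 and 111 to 11.95 and 15.2 in roots. In shoots it went from 107, 84.6 and 102 to 24.1, 16.2 and 20.5. The groups did not overlap in either tissue, and the responses were -2.86 and -2.22 (edgeR adjusted p of the difference 0.248). MLOC_12171 went from 391 and 467 to 70.5 and 83.1 in roots, and from 284, 347 and 337 to 83.8, 61.5 and 65.7 in shoots. Its responses were -2.46 and -2.18, and the difference was not called either (edgeR adjusted p = 0.456).

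**Figure D2:**
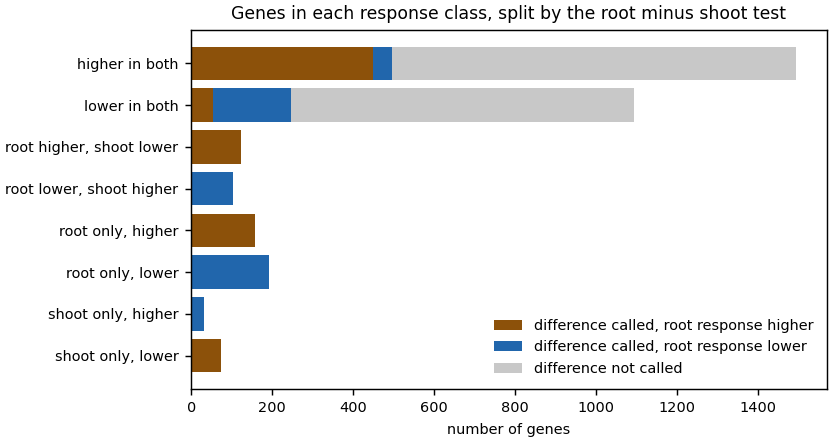
Number of genes in each response class (bars), split by whether the root minus shoot difference was called higher, called lower or not called. Most of the 1494 genes higher in both and the 1094 lower in both had no called difference, and the opposite and 1 tissue only classes were smaller.

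The genes with the highest differences rose strongly in roots. MLOC_66151 led with a difference of 6.18. It had 39.7 and 20.5 normalized counts in control roots against 3649 and 3185 in heated roots. Its shoot libraries had 258, 349 and 301 in control and 424, 536 and 424 under heat. Both tissues rose without overlap, by 6.78 in roots and by 0.60 in shoots (edgeR adjusted p of the difference 2.09e-08). Before heat the gene was higher in shoots, and after heat it was higher in roots. MLOC_63614 behaved in the same way. It went from 95.7 and 101 to 11130 and 10607 in roots, and from 1010, 828 and 814 to 2412, 2671 and 2880 in shoots. Its difference was 5.18 (edgeR adjusted p = 5.08e-09).

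The other 3 genes of this group were scarce in control roots and abundant in shoots. MLOC_68416 had 0.86 and 1.64 normalized counts in control roots, from 3 reads in all, against 228 and 308 in heated roots. In shoots it had 1889, 1914 and 1832 in control and 4518, 3339 and 3442 under heat. Heated roots were 213 times the control roots, with an exact 95% interval of 72.5 to 1038 that covers counting error only. In normalized counts, each scaled within its tissue, the root level under heat was still 7.12% of that in heated shoots.

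MLOC_67371 had 0 and 2.46 normalized counts in control roots, again from 3 reads, against 129 and 135 in heated roots. Shoots had 4810, 4181 and 3403 in control and 8951, 7982 and 7899 under heat. The root ratio was 105, with an interval of 35.4 to 512, and the heated root level was 1.59% of that of heated shoots. MLOC_10453 had 8.62 and 11.5 in control roots against 155 and 210 in heated roots. It moved the other way in shoots, from 1593, 2107 and 2083 to 939, 1203 and 1143. Its heated root level was 16.7% of the heated shoot level and its difference was 4.87 (edgeR adjusted p = 3.81e-07). The means of these 3 genes and of MLOC_66151 in control roots were under 50, so that they met the minimum in roots through the heated libraries.

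Since such genes are shoot genes at rest, their class was followed in the root libraries. Of all genes listed for both tissues, 237 had a control shoot mean of at least 1000 and a control root mean of at most 10. Among the 10907 genes are 2 of them. MLOC_10453, with a control root mean of 10.04, lies just outside this class. Summed, they had 556 and 821 normalized counts in control roots against 1856 and 2003 in heated roots, or 0.0050% and 0.00999% of all reads assigned to genes. The root response was called higher for 43 of the 237 (18.1%) and lower for 4 (1.69%). Over all genes of the fit 21.1% were higher and 22.2% lower, but changes at such low root levels are harder to call. The median response of the 237 genes was 0.62 in roots and 0.045 in shoots. The choice rests on a low control root mean, which by itself favours rises, and the part of other RNA in the root rises was not tested. The 10 genes left out of the tests were also far more abundant in shoots, but are not among the 237. Their shoot means were at least 85510, their root responses ran from 0.52 to 3.02 and their shoot responses from 0.09 to 0.42.

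The lowest differences were mostly falls in roots beside rises in shoots. MLOC_58742 had 312 and 276 normalized counts in control roots against 34.7 and 18.7 in heated roots. Its shoot libraries had 45.3, 35.5 and 34.8 in control and 80.4, 50.7 and 72.9 under heat. It fell by 3.41 in roots and rose by 0.80 in shoots, a difference of -4.22 (edgeR adjusted p = 3.65e-06). MLOC_60990 was alike. It went from 397 and 373 to 38.2 and 43.3 in roots, and from 40.4, 42.8 and 39.9 to 75.8, 70.1 and 74.9 in shoots. Its difference was -4.04 (edgeR adjusted p = 1.52e-07). In both genes the groups did not overlap in either tissue.

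MLOC_52332 was higher in control roots than in control shoots and moved in opposite directions under heat. It had 2402 and 2102 normalized counts in control roots against 696 and 717 in heated roots. In shoots it had 217, 226 and 236 in control and 866, 819 and 784 under heat. In normalized counts the tissues lay close together under heat. The log2 root to shoot ratio, with each group scaled to its total, went from 3.01 in control to -0.74 under heat. The difference was -3.53 (edgeR adjusted p = 9.87e-09).

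MLOC_66700 had a negative difference of another kind, since it rose in both tissues and further in shoots. It had 29.3 and 20.5 normalized counts in control roots against 345 and 356 in heated roots. In control shoots 2 reads were counted in all, giving 0, 0 and 1.70, and heated shoots had 156, 226 and 201. The shoot ratio was 322, with an exact 95% interval of 88.6 to 2664 that covers counting error only. The log2 root to shoot ratio under heat was 0.29, and the difference of the group means was -3.20 (edgeR adjusted p = 6.84e-04).

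**Figure D3:**
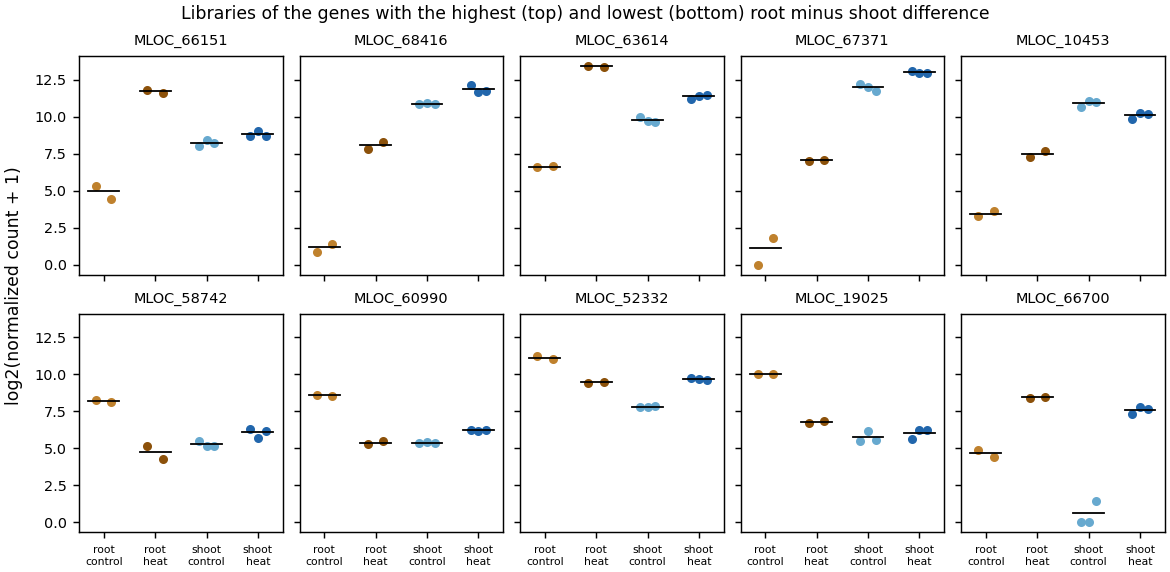
Log2(normalized count + 1) in every library (points) with the group mean (lines) for the 5 genes with the highest differences (top row) and the 5 with the lowest (bottom row). In 9 of the 10 genes the heat and control libraries do not overlap in either tissue, and in MLOC_19025 they overlap in shoots.

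Opposite responses were rare. A total of 228 genes were called in both tissues in opposite directions, with 124 higher in roots and lower in shoots and 104 the reverse, beside 1.73% over all genes of the fit. At an adjusted p threshold of 0.01 they numbered 94. MLOC_5705 had 154 and 136 normalized counts in control roots against 629 and 480 in heated roots. Shoots had 1315, 1375 and 1301 in control and 668, 440 and 511 under heat. In normalized counts the heated levels of the tissues were close, where the control levels had been far apart. The log2 root to shoot ratio went from -3.34 in control to -0.49 under heat. Its responses were 1.93 and -1.30 (edgeR adjusted p of the difference 1.11e-06).

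MLOC_55834 went from 324 and 233 to 696 and 816 in roots and from 159, 179 and 86.6 to 43.6, 48.5 and 47.2 in shoots. Here the tissues moved apart, with a difference of 3.02 (edgeR adjusted p = 5.39e-05). In the reverse class, besides MLOC_52332, MLOC_10689 went from 380 and 263 to 189 and 116 in roots. In shoots it went from 141, 166 and 129 to 421, 408 and 344. The more abundant tissue changed from roots to shoots, with a difference of -2.50 (edgeR adjusted p = 4.82e-05).

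Responses of 1 tissue only were defined narrowly. The gene had to be called in one tissue with a log2 response of at least 1 in size, to be uncalled and under 0.3 in size in the other, and to be called in the difference. This held for 454 genes, and over all genes of the fit for 3.81%. In roots only, 157 genes rose (1.44%) and 191 fell (1.75%), and in shoots only, 32 rose (0.29%) and 74 fell (0.68%). Over all genes of the fit these shares were close, with 1.30%, 1.58%, 0.34% and 0.60% in the same order. With scaling to total reads the 454 genes became 327. Without the added conditions far more genes were called in 1 tissue and not in the other, 2407 in roots and 1539 in shoots. The difference was called for only 1061 (44.1%) and 480 (31.2%) of them. Over all genes of the fit 43.3% were called in roots and 32.3% in shoots. Calls in both tissues made up 17.2% in the same direction and 1.73% in opposite directions, so many other genes were also called in 1 tissue alone. Neither response was called for 4135 genes.

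Among the genes that rose in roots only, MLOC_30704 stood first. It had 111 and 114 normalized counts in control roots against 2222 and 2417 in heated roots. Its shoot libraries had 412, 425 and 356 in control and 359, 318 and 378 under heat, where the groups overlapped. The difference was 4.53 (edgeR adjusted p = 5.08e-09). MLOC_34630 and MLOC_51713 were shoot-abundant genes at rest. MLOC_34630 went from 10.3 and 14.7 to 227 and 235 in roots beside 954 to 1414 in control shoots and 1132 to 1551 in heated shoots. MLOC_51713 went from 209 and 156 to 2893 and 2537 in roots beside 4110 to 5158 and 4194 to 4447 in shoots. Their differences were 4.0 and 3.99 (edgeR adjusted p = 3.10e-06 and 6.20e-08).

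The falls in roots only were led by MLOC_19025. It had 1051 and 1034 normalized counts in control roots against 103 and 116 in heated roots, and its shoot libraries overlapped between 45.3 and 74.9. The difference was -3.51 (edgeR adjusted p = 2.00e-06). MLOC_61170, also a gene higher in roots than in shoots, went from 3188 and 2871 to 394 and 369 in roots and had 136 to 164 in all shoot libraries. MLOC_63464 was shoot-abundant instead. It went from 586 and 619 to 80.1 and 57.4 in roots, while shoots had 4298 to 4893 in control and 3842 to 5249 under heat. The differences of both genes were -3.05 and -3.08 (edgeR adjusted p = 6.20e-08 and 1.68e-06).

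In shoots only, MLOC_57538 rose from 15.8, 20.02 and 26.3 to 85.0, 78.7 and 98.5, and had 108 and 142 in control roots against 127 and 122 in heated roots. MLOC_79063 rose from 15.8, 22.7 and 31.4 to 79.2, 98.1 and 92.4 in shoots beside 616 to 724 in all root libraries. Both were root-abundant genes whose shoot level came nearer to that of roots. MLOC_53324 rose from 210, 259 and 182 to 822, 815 and 786 in shoots, and had 153 and 156 in control and 172 and 157 in heated roots. The differences of the 3 genes were -2.03, -1.90 and -1.80 (edgeR adjusted p = 3.68e-04, 1.61e-04 and 3.60e-05).

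The falls in shoots only included MLOC_70443, whose log2 root to shoot ratio in control was -0.23. It had 824, 784 and 710 normalized counts in control shoots and 233, 155 and 178 in heated shoots, beside 739 to 801 in all root libraries. The difference was 1.98 (edgeR adjusted p = 1.77e-05). MLOC_45125 fell in shoots from 207, 255 and 218 to 35.6, 33.4 and 41.0. Its root libraries spread between 379 and 648, and the control and heat libraries overlapped. MLOC_73815 fell in shoots from 76.8, 71.9 and 125 to 17.2, 19.4 and 19.5, beside 168 to 197 in roots. Their differences were 2.42 and 2.35 (edgeR adjusted p = 1.25e-04 and 2.44e-04).

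**Figure D4:**
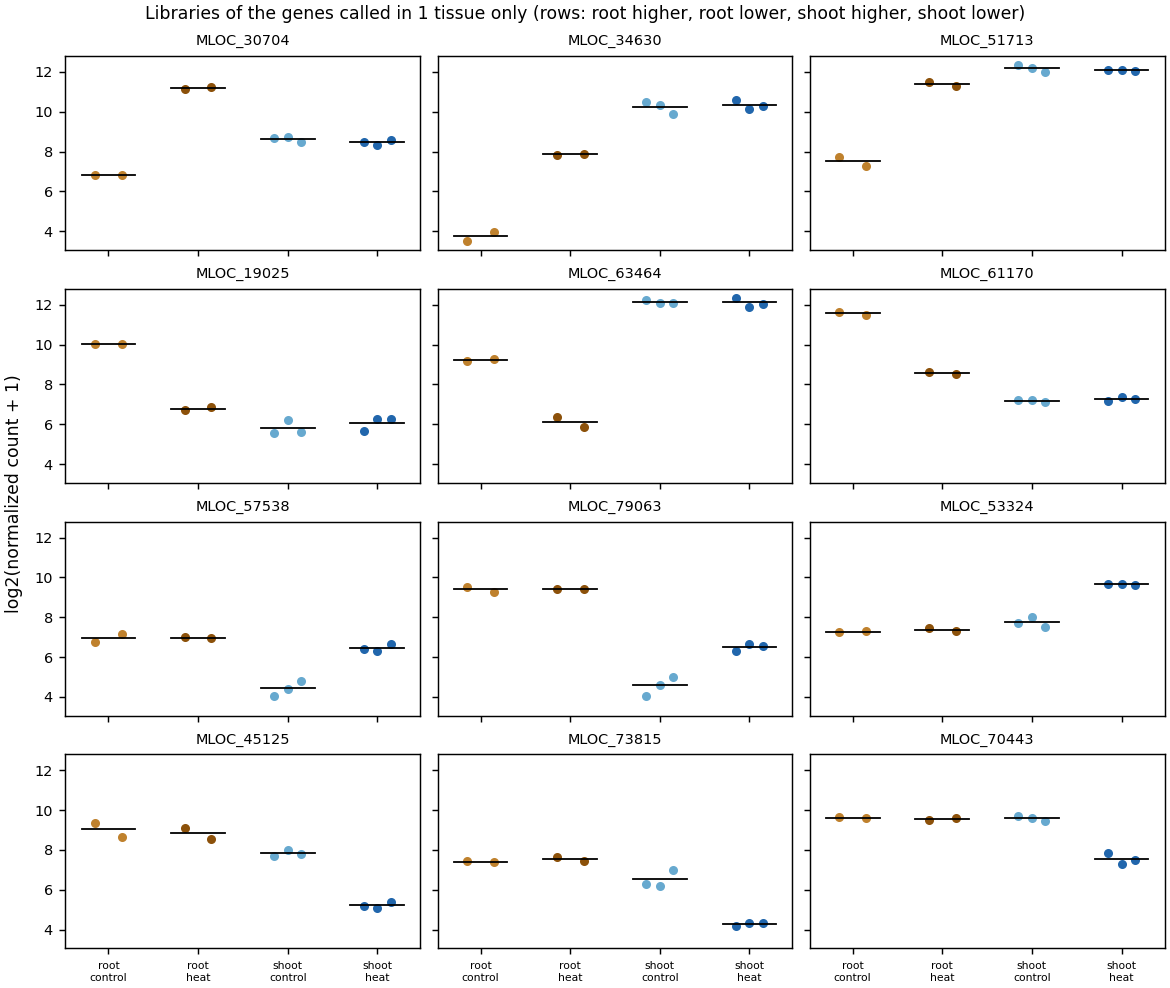
Log2(normalized count + 1) in every library (points) with the group mean (lines) for the 12 genes named in the classes of 1 tissue only, 3 in each row. In each gene the libraries of 1 tissue separate by condition by a log2 response of at least 1, and in the other tissue the group means differ by under 0.3, with the widest spread of libraries in the roots of MLOC_45125 (379 to 648).

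The correlation was higher at higher levels of expression, where the responses were also more widely spread. When the genes were ordered by the geometric mean of their root and shoot means and divided into 4 equal bands, r was 0.595 in the lowest band, 0.643 and 0.713 in the middle bands and 0.891 in the highest, which lay above a mean of 753. The slope of root on shoot went from 0.78 to 1.10 over the same bands. The means include the heated libraries, so genes that rise strongly in both tissues move to higher bands. That by itself favours a higher r there, and its part was not tested. The SD of the difference changed little, between 0.65 and 0.68. The responses had an SD of 1.48 in roots and 1.20 in shoots in the highest band, against 0.82 and 0.63 in the lowest. The difference was called for 18.3% of the tested genes in the lowest band and 26.8% in the highest. Higher read counts also make a difference of a given size easier to call.

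The difference also varied with where a gene was expressed at rest, as given by the root to shoot ratio in control with each group scaled to its total over the 10907 genes. The 9190 genes within 4-fold of equal levels had a median difference of 0.08 and an SD of 0.62. The 209 genes at least 16-fold higher in shoots had a median difference of 0.18 and an SD of 1.21. The 61 genes at least 16-fold higher in roots had a median of -0.26 and an SD of 1.02. The ratio and the responses share the control means, so noise in the control libraries moves them together, and no test was made.

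By the SD, heat left the tissues about as far apart as before, while the interquartile range was wider under heat. The SD of the log2 root to shoot ratio was 1.56 in control and 1.58 under heat, and its interquartile range went from 1.29 to 1.46. The ratios in both conditions correlated with an r of 0.919.

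A small set of genes changed sides. In 19 genes the tissue with the higher level changed, with a ratio of at least 2-fold on either side, from roots to shoots in 9 and from shoots to roots in 10. The difference was called for all 19 in the edgeR fit. MLOC_66151 went from a log2 root to shoot ratio of -3.13 in control to 2.32 under heat, MLOC_63614 from -3.26 to 1.49 and MLOC_30704 from -1.96 to 2.14. In the other direction MLOC_60990 went from 2.70 to -1.09 and MLOC_58742 from 2.39 to -1.38. These genes were picked out by the ratios themselves. The sides, and the bands by ratio above, depend on the scaling, which does not centre the ratio at 0. The 7627 tested genes in none of the response classes had a median log2 ratio of 0.90 in control and 0.64 under heat.

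**Figure D5:**
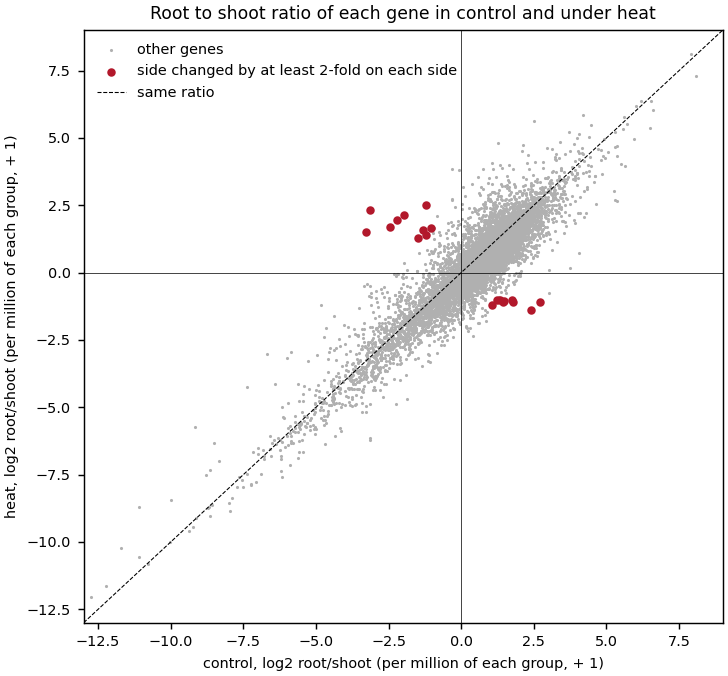
Log2 root to shoot ratio of each gene under heat against the same ratio in control, with each group mean scaled to its total over the 10907 genes and a pseudocount added, and 1 point per gene. Most genes lie along the line of equal ratio (r = 0.919), and the 19 genes that changed sides stand apart in the upper left and lower right.

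Of the 11 genes that the study pairs with identifiers, 7 met the minimum in both tissues, Hsp90.1 and 6 genes of Pi regulation and transport. PHT1;1, PHT1;4, PHO1 and SPX-MFS were below it in at least 1 tissue. NLA (MLOC_52462), known in Arabidopsis as a ubiquitin ligase that marks Pi transporters for degradation, had 68.1 and 63.8 normalized counts in control roots against 170 and 200 in heated roots. In shoots it had 49.2, 58.2 and 55.2 in control and 59.7, 66.8 and 80.0 under heat. It rose in roots, and the shoot response of 0.34 was not called (edgeR adjusted p = 0.146). The difference of 1.13 was called (edgeR adjusted p = 0.00862), and with scaling to total reads it was 0.84 with an adjusted p of 0.0522.

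PHT1;6 (MLOC_80912), a Pi transporter, had 404 and 304 normalized counts in control roots against 233 and 186 in heated roots. Its shoot libraries overlapped, with 483, 592 and 381 in control and 450, 493 and 700 under heat. The difference of -0.93 lay just inside the threshold (edgeR adjusted p = 0.0456). It missed the threshold without any 1 of 7 of the 10 libraries, with adjusted p from 0.0524 to 0.165. PHO2 (MLOC_53410), a ubiquitin-conjugating enzyme that lowers Pi transport, fell in both tissues. It went from 2634 and 2573 to 1744 and 1805 in roots and from 1075, 1191 and 1061 to 905, 835 and 838 in shoots. The responses of -0.55 and -0.37 were not called different (edgeR adjusted p = 0.384), and with scaling to total reads the difference was -0.48 with an adjusted p of 0.0317.

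The transcription factors PHR1 (MLOC_5585) and PHR2 (MLOC_60198), regulators of Pi starvation genes, and the SUMO ligase SIZ1 (MLOC_38182) were called in neither tissue. Their fitted differences were -0.09 ± 0.15, 0.13 ± 0.19 and 0.02 ± 0.15 (SE). The 95% intervals of the difference ran from -0.42 to 0.24 for PHR1, from -0.29 to 0.55 for PHR2 and from -0.30 to 0.35 for SIZ1. For PHR1 and SIZ1 these lay within 0.5 of 0, and for PHR2 the upper end did not. The libraries of PHR1 and PHR2 overlapped in both tissues, while those of SIZ1 were lower under heat without overlap. SIZ1 went from 486 and 520 to 437 and 445 in roots. In shoots it went from 244, 251 and 246 to 195, 208 and 230. Its responses were -0.19 in roots and -0.23 in shoots.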

How the data were processed

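RNA-seq of barley roots and shoots was analysed from 1 table per tissue. Per the study, TopHat2 placed the reads on the barley genome of Ensembl Plants, HTSeq counted them per gene and the authors divided the counts by DESeq size factors. No source used here gives their versions. The deposited values are group means of normalized counts, a signal with no replicate columns. Columns of the authors' own comparisons (fold changes, p-values and adjusted p-values) were not used, nor were the tables filtered on them.

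A group mean adds up whole read numbers, divided by the size factor of their library and by the number of libraries. The size factors and reads were recovered in Python 3.11.15 by lattice reduction. All root means gave a single solution, as did 99.6% of shoot control and 99.7% of shoot heat means. Of 500 means moved at random per group 0 could be split. A few further shoot means had several solutions and the one with like libraries was used.

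The recovered counts were tested in R 4.3.3 with edgeR 4.0.16 (TMM, filterByExpr, quasi-likelihood, 1 coefficient per group), with the difference as an interaction contrast. The common biological coefficient of variation was 11.9%, with 6 residual degrees of freedom. DESeq2 1.42.0, other scalings, no filter, a threshold of 0.01 and leaving out each library were alternatives. Scripts were tested on simulated data. Lines naming no gene (no feature, not unique, ambiguous) held 60.4% (control) and 60.6% (heat) of the normalized reads of roots and 66.6% and 67.7% of those of shoots, and were left out. Reads with several alignments were not counted, so genes with near-identical copies are uncertain. No source used here gives the strand setting of HTSeq, so overlapping genes are uncertain too. Intervals marked as exact are Clopper-Pearson.

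The genes, classes and named genes were chosen with earlier results of these data known. Named were the 5 highest and 5 lowest called differences, the 3 strongest shared rises and falls with no called difference, 2 of each opposite class by the smaller response, 3 of each class of 1 tissue by the difference, and the genes paired with identifiers by the study. Planned lists by keyword (chaperones, photosynthesis and others) could not be applied, since the identifiers carry no names. Of the 10907 genes 6 have identifiers that begin with EPlHVUG, and 2 of them were called in the difference. Over the 10897 tested genes the share called was 23.4%, and so few genes allow no comparison with it.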

Additional observations from a re-analysis of the deposited data

Results flagged for a closer look

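The responses of roots and shoots to the same heat treatment differed, by the edgeR test of the difference itself, for 2553 genes. Among the named genes the fitted difference, root minus shoot on the log2 scale, was 6.21 for MLOC_66151, 6.51 for MLOC_68416, 5.18 for MLOC_63614, 5.49 for MLOC_67371 and 4.96 for MLOC_10453. The 3 genes that rose in roots only had 4.53 (MLOC_30704), 4.06 (MLOC_34630) and 3.98 (MLOC_51713). The genes that fell in shoots only had 2.43 (MLOC_45125), 2.40 (MLOC_73815) and 1.97 (MLOC_70443). MLOC_5705 and MLOC_55834, which went up in roots and down in shoots, had 3.22 and 3.03, and NLA had 1.13.

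On the negative side the fitted difference was -4.36 for MLOC_66700, -4.29 for MLOC_58742, -4.09 for MLOC_60990, -3.55 for MLOC_52332 and -3.54 for MLOC_19025. The other falls in roots only had -3.11 (MLOC_63464) and -3.07 (MLOC_61170), and MLOC_10689 had -2.52. The rises in shoots only had -2.08 (MLOC_57538), -1.94 (MLOC_79063) and -1.82 (MLOC_53324), and PHT1;6 had -0.94. Fitted values of MLOC_68416, MLOC_67371 and MLOC_66700 depend on the prior count, since a control group of each held 2 or 3 reads.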

How the results depend on the processing

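With scaling to total reads 762 genes had a called difference higher in roots and 2136 lower. At a threshold of 0.01 the difference was called for 1444 genes, 875 higher and 569 lower, with 94 opposite responses and, among shared responses, 353 larger in roots and 36 in shoots. Requiring a difference of at least 1 left 1089, 660 higher and 429 lower, with 337 and 35 among shared responses. Leaving out each library gave 998 to 1514 differences higher in roots (998 without the root control library of size factor 1.22), and 50 to 102 shared responses larger in shoots, with 50 to 64 without any 1 of the 4 root libraries, which leaves a lone library whose spread is taken from the other groups. Of the 2553 genes 1447 kept their call and direction without each library, and 2394 were called in the same direction by DESeq2. Other counts stayed within 1.5 times of the reported ones.

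Pearson's r was 0.737 at a minimum mean of 20 and 0.846 at 200, and Spearman's rho was 0.641 at 200 and 0.640 over genes called in either tissue. The slope of root on shoot was 0.97 at a minimum of 20, 1.07 at 200 and 1.06 with a pseudocount of 10. In the 2 settings added after seeing the data, r and the slope were 0.618 and 0.86 without the 140 strongest risers, and 0.447 and 0.53, with a rho of 0.450, for genes under 1 in size in both tissues. At a minimum of 200 the SD of the root to shoot ratio was 1.33 in control and 1.36 under heat. Its interquartile range was 1.21 in control and 1.38 under heat. Of 518 fits of named genes under these alternatives 506 kept the side of the threshold, 8 lost the call (PHT1;6 in 7, NLA in 1), 4 gained it (Hsp90.1 in 2, MLOC_10834 and PHO2 in 1 each), and 0 called differences turned direction. Differences called in neither fit changed sign in 13, for MLOC_2337, MLOC_77985, MLOC_13520, PHR2 and SIZ1. The causes were not tested.

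No paired analysis was possible because libraries recovered from group means carry no replicate letter. With 2 root libraries per group, the root responses limit the test most.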
